A study of Mus musculus with 8 samples.

Results

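The genes described here are the matrix proteases of mouse neural retina, their inhibitors and a group of matricellular proteins, 84 gene symbols of the 43472 listed. They were picked by a rule on symbols that used no measured value, but earlier results of these data were known when it was set. The proteases are 23 matrix metalloproteinases (Mmp), 27 membrane-anchored members of the ADAM family and 19 secreted members of the ADAMTS family. With them go 4 tissue inhibitors of metalloproteinases (Timp). The other 11 are matricellular proteins or chondroitin sulphate proteoglycans (Thbs1, Thbs2, Sparc, Sparcl1, Tnc, Vcan, Bcan, Ncan, Cyr61, Ctgf and Wisp1). Of the 84 genes, 68 had at least 1 count and 34 passed the filter on low counts. RNA was taken from neural retinas of C57BL/6J mice at 3 weeks (postnatal day 21), and the RNA of both retinas of 1 mouse made 1 library. The 4 control mice were 3 Mfp2+/+ animals and 1 Mfp2+/- animal (control replicate 2), and the 4 Mfp2-/- mice lacked MFP2, a peroxisomal β-oxidation enzyme, in all cells from conception. The question put to these genes was which of them differed between Mfp2-/- and control retinas.

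Matrix metalloproteinases and ADAMTS proteases cut collagens, laminins and proteoglycans outside the cell, whereas ADAM proteases release the outer parts of membrane proteins. TIMP proteins bind the active site of these enzymes and block it. Matricellular proteins sit in the matrix without building it and change how cells attach to it and respond to growth factors. In the retina such proteins come from Müller glia, astrocytes, microglia and vessels, and the matrix around photoreceptors and synapses is rich in proteoglycans that ADAMTS enzymes cut.

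Libraries held 1895485 to 3226187 counts in genes. The counts of Hsd17b4, the gene of MFP2, were 47, 20, 78 and 37 in the controls and 1, 0, 1 and 0 in the Mfp2-/- libraries. The 10 rod markers that define the tissue summed to 25520 to 28890 CPM (counts scaled to library size) in control and to 1049 to 1422 CPM in Mfp2-/- libraries. Mfp2-/- replicates 2 and 3 stood apart with 10.8% and 15.7% of reads outside genes, against 22.6% to 29.9% in the other libraries. Among marker lists of other cells, 11 of 11 tested microglial genes rose (summed level 61.6 to 83.3 CPM in control, 310 to 438 CPM in Mfp2-/-), as did 7 of 10 Müller genes (4341 to 4882 CPM and 5667 to 7452 CPM). The Müller genes not called were Glul, Rlbp1 and Aqp4, with log2 fold changes of -0.52, -0.01 and 0.13. Of those that rose, Apoe went from a mean of 603 to 1679 CPM and Clu from 515 to 1106 CPM. Upregulation was called for 1 of 2 astrocyte, 1 of 9 endothelial, 0 of 4 pericyte, 2 of 5 fibroblast, 0 of 8 pigment epithelium and 3 of 4 lens fibre genes, the last summing to 15.7 to 58.2 CPM in control and 21.7 to 469 CPM in Mfp2-/- libraries. From counts of a piece of tissue alone, fewer cells of a type and less RNA per cell cannot be told apart. For photoreceptors, the study counted nuclei in sections at 3 weeks and reported normal numbers. The part of the marker lists in the results that follow was not tested.

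Of the 34 tested genes, 18 were upregulated and 2 were downregulated in Mfp2-/- retinas. This is 58.8% of them, where 27% of all 12516 tested genes were called (13.8% upward and 13.2% downward). Calls were made with edgeR's quasi-likelihood test at a Benjamini-Hochberg adjusted p under 0.05 over all tested genes, and every adjusted p given for a gene comes from this test unless another is named. The median log2 fold change was 1.01 for the tested genes of the families, against -0.0039 for all genes tested. In 16 genes each Mfp2-/- library lay above each control library and in 2 genes below, where 30.9% of all tested genes had groups that did not overlap. A gene can only be tested if it is high enough in at least 1 group, so these counts describe the 34 genes and not the 84. By family, 3 of 3 Timp, 4 of 7 Mmp, 4 of 6 Adamts, 6 of 10 matricellular and 1 of 8 Adam genes were upregulated, and the downregulated genes were Adamts3 and Wisp1. All values per library are CPM, which in this 3′ end method count reads without regard to transcript length. As molecules were not told apart by barcodes, comparisons between genes are of reads and not of numbers of transcripts.

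**Figure D1:**
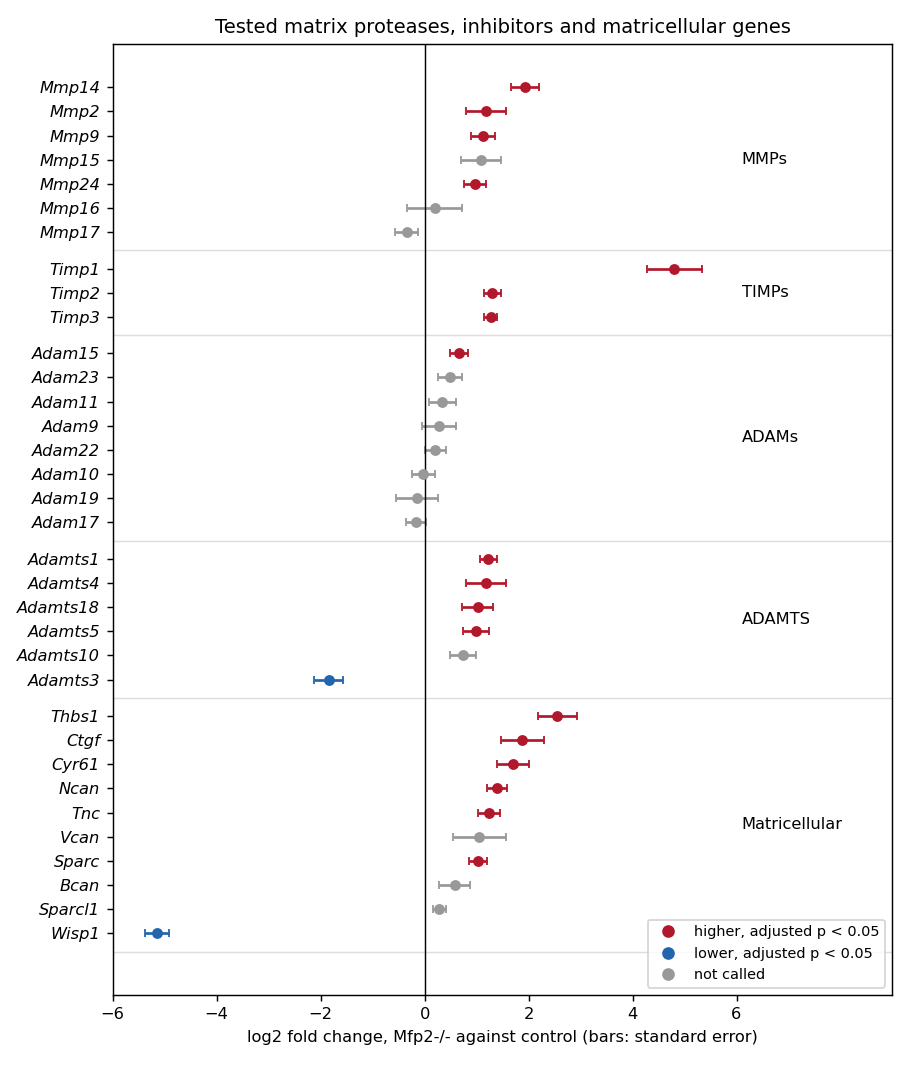
Log2 fold change of the 34 tested genes in Mfp2-/- against control retinas (horizontal axis), grouped by family, with bars of 1 standard error and colours for genes called at an adjusted p under 0.05. Most Timp, Mmp, Adamts and matricellular genes lie to the right of 0, the Adam genes lie between -0.17 and 0.66 with 1 of 8 called, and Wisp1 at -5.16 and Timp1 at 4.80 are the extremes.

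All 3 tested inhibitors rose. Timp1, an inhibitor that is low in healthy tissue and made in response to injury and cytokines, was counted 1, 1, 3 and 0 times in the controls (replicates 1 to 4, as for all lists of 4 values here) and 53, 32, 24 and 36 times in the Mfp2-/- libraries. It was thus barely detected in control retinas (0.446 ± 0.399 CPM, mean ± SD, n = 4) and present in each Mfp2-/- retina (14.1 ± 4.60 CPM). The log2 fold change was 4.80, with a standard error of 0.53, which is given in parentheses for other genes (adjusted p = 7.64e-05). As its control value rests on 5 counts in all, the size of the change is uncertain, and without control replicate 3 the log2 fold change was 5.54. Timp2, which blocks metalloproteinases and also helps MMP14 to activate MMP2, lay at 224, 199, 238 and 192 CPM in controls and at 444.5, 654.5, 558 and 449.7 CPM in Mfp2-/- replicates 1 to 4. The lowest Mfp2-/- library was far above the highest control library, and the log2 fold change was 1.30 (0.16, adjusted p = 1.85e-04). Timp3, an inhibitor that stays bound to the matrix and is mutated in Sorsby fundus dystrophy, lay at 144.5, 131, 163 and 134.5 CPM in controls and at 306, 333, 369.8 and 372 CPM in Mfp2-/- libraries. The groups did not overlap, the log2 fold change was 1.27 (0.13, adjusted p = 5.11e-05), and among the 3 tested inhibitors its Mfp2-/- libraries were the closest to each other in relative terms. Timp4 was too low to be tested, at 3, 0, 0 and 3 counts in the controls and 1, 1, 4 and 5 in the Mfp2-/- libraries. The ratio of its summed counts was 1.91, and the exact 95% interval, which holds only counting error, ran from 0.648 to 6.29.

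The ratio of Timp2 to Timp3 counts was 1.49 ± 0.0556 in control (range 1.43 to 1.55) and 1.53 ± 0.316 in Mfp2-/- libraries (SD, n = 4), where replicate 2 at 1.97 lay above and replicate 4 at 1.21 below the control range. Timp1 remained a minor inhibitor by number of counts. Its share of the counts of the 4 Timp genes went from 0.119% ± 0.0997 in control to 1.63% ± 0.644 in Mfp2-/- retinas (SD, n = 4). Timp3 shares 1733 exon bases with Syn3 on the other strand, which had 52 counts over all libraries, and Timp4 shares 90 exon bases with Syn2, which had 1922. Whether the counting used strand is not given in the sources used here.

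The start of Timp1 is shown because it is the gene of these families with the largest increase, and that of Cyr61 because, of the 12 upregulated genes with a promoter window, these are the 2 that hold the same short motif. No window was at hand for the upregulated genes Adamts4, Adamts5, Ctgf, Mmp2, Mmp9 and Thbs1. Both windows are the 250 bases before the start site in RefSeq (GRCm38.p6), written 5′ to 3′ on the strand of the gene, with the TEAD motif GGAATG in capitals, on whichever strand it was found. Timp1 lies on the plus strand (chrX:20869916-20870165), with the motif starting 247 bases before the start site, and Cyr61 on the minus strand (chr3:145649986-145650235), with the motif 103 bases before it.
Timp1: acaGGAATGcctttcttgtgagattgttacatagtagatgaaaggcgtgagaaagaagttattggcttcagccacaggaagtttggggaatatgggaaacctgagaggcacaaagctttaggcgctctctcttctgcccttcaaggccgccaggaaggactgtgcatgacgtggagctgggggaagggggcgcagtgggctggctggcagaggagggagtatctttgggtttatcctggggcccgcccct
Cyr61: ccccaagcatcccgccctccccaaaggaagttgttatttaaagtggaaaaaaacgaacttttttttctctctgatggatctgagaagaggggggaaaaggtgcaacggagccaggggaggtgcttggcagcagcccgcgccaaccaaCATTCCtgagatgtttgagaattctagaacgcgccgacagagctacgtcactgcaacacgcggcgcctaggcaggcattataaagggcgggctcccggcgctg
These letters are short and frequent: 12.6% of all 32851 promoter windows of this length hold them on one strand or the other. A window was at hand for 51 of the 84 genes, and 4 of these held the motif, Timp1, Cyr61, Adam19 and Adamts13. A match is a description of the letters and not a binding site.

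Among the 7 tested metalloproteinases Mmp14 rose most. MMP14 is a membrane-bound collagenase at the cell surface that activates MMP2. Its values were 12.01, 14.5, 22.3 and 17.8 CPM in control and 55.9, 91.0, 69.6 and 40.1 CPM in Mfp2-/- replicates 1 to 4. Every Mfp2-/- library was above every control library, with Mfp2-/- replicate 2 highest and replicate 4 lowest, and the log2 fold change was 1.93 (0.27, adjusted p = 4.65e-04). In control its mean level of 16.6 CPM was below those of Mmp16, Mmp24 and Mmp9 (20.4, 19.7 and 18.4 CPM), and in Mfp2-/- retinas it was the highest of the family, at 64.1 CPM. The order of its Mfp2-/- libraries (replicates 2, 3, 1, 4) was that of a list of 4 lens fibre markers, which summed to 469, 272, 110.4 and 21.7 CPM in the same libraries. The share of reads outside genes had this order reversed (10.8%, 15.7%, 27.5% and 28%), so the 2 cannot be told apart. The part of either in the Mmp14 result was not tested. Without Mfp2-/- replicates 2 and 3 the log2 fold change was 1.51 and still called (adjusted p = 2.26e-04). This fit keeps Mfp2-/- replicate 1, whose lens markers lay above all controls (15.7 to 58.2 CPM), so it does not test the part of lens RNA. Mmp9, the gelatinase known from microglia, neurons and white blood cells, lay at 12.7, 17.2, 19.7 and 24.0 CPM in controls and at 34.0, 56.4, 36.3 and 35.7 CPM in Mfp2-/- libraries. The groups were separate and Mfp2-/- replicate 2 stood above the other 3 (log2 fold change 1.12, 0.23, adjusted p = 0.00494). Mmp24, a membrane-type enzyme of neurons, went from 22.6, 18.1, 21.0 and 17.1 CPM to 32.6, 54.9, 38.3 and 30.2 CPM in the same order of libraries. The groups did not overlap (log2 fold change 0.97, 0.21, adjusted p = 0.00627). The Mfp2-/- libraries again had the order of the lens markers and, reversed, of the share of reads outside genes. The part of either in the Mmp24 result was not tested. Without Mfp2-/- replicates 2 and 3 the log2 fold change was 0.66 (adjusted p = 0.021). Mmp24 shares 637 exon bases with BC029722 on the other strand, which had 713 counts over all libraries.

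Mmp2, the other gelatinase and the substrate of MMP14, was low, at 4.37, 3.62, 2.90 and 1.74 CPM in control and 9.56, 8.64, 7.06 and 3.68 CPM in Mfp2-/- replicates 1 to 4. Mfp2-/- replicate 4 lay within the control range, and the log2 fold change of 1.19 (0.38) was close to the threshold (adjusted p = 0.042). It failed in the fits that left out control replicate 2, 3 or 4, or Mfp2-/- replicate 1, 2 or 3, with log2 fold changes of 0.99 to 1.25 and adjusted p of 0.0699 to 0.111. Mmp2 also failed with limma-voom (adjusted p = 0.0678), with no filter (0.0557) and without Mfp2-/- replicates 2 and 3 together (0.12). Mmp15, Mmp16 and Mmp17, which are membrane-type enzymes like MMP14, did not pass the test. Their log2 fold changes were 1.08, 0.19 and -0.35. Mmp15 passed in 4 of 18 alternatives, with adjusted p of 0.0139 to 0.0388. Mmp16 was the most uneven of these genes, with 36.5 and 38.6 CPM in Mfp2-/- replicates 1 and 4 but 5.08 and 11.4 CPM in replicates 2 and 3, against 9.03 to 26.5 CPM in control. When Mfp2-/- replicates 2 and 3 were left out together, Mmp16 passed with a log2 fold change of 0.88 (adjusted p = 0.0368), in a fit that called 26% of all genes.

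**Figure D2:**
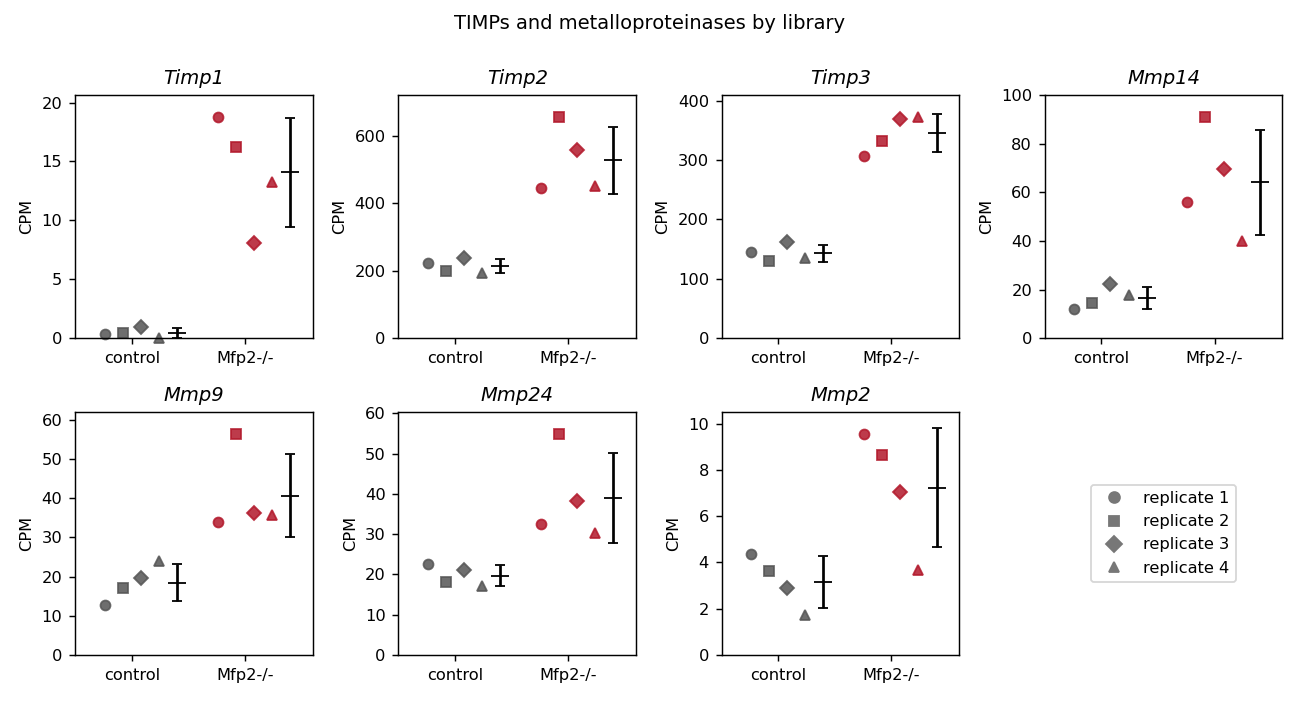
CPM (vertical axes) of the 3 tested Timp genes and the 4 upregulated Mmp genes in each of the 4 control and 4 Mfp2-/- libraries, with 1 marker shape per replicate number and bars for mean ± SD. Groups overlap only for Mmp2, where Mfp2-/- replicate 4 at 3.68 CPM lies within the controls, and Mfp2-/- replicate 2 is highest for Timp2, Mmp14, Mmp9 and Mmp24.

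The start of Mmp14 (GRCm38.p6, chr14:54431348-54431597, plus strand, the 250 bases before the start site) is shown beside those of 2 metalloproteinases from another chromosome that were hardly detected, Mmp3 (chr9:7445572-7445821) and Mmp13 (chr9:7272264-7272513), both also on the plus strand. Capitals mark the AP-1 motif TGANTCA (N is any base), the letters bound by FOS and JUN proteins, searched on both strands. It starts 46 bases before the start site of Mmp3 and 35 bases before that of Mmp13.
Mmp14: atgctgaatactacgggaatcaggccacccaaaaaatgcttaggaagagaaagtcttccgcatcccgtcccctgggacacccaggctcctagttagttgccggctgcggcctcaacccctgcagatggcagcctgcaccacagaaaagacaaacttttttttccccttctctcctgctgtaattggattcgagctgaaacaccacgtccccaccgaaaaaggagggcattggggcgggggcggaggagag
Mmp3: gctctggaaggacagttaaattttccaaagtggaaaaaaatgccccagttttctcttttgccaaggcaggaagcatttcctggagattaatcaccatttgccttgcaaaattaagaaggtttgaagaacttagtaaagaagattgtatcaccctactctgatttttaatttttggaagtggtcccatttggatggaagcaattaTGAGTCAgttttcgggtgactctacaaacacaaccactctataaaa
Mmp13: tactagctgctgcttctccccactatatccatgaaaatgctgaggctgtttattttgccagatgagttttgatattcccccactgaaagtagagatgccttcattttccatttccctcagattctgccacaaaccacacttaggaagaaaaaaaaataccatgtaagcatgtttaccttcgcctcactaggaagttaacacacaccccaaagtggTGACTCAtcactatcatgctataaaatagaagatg
Mmp3 and Mmp13 belong to a run of 10 collagenase, stromelysin and related genes on chromosome 9 between 7272514 and 7699585 (Mmp13, Mmp12, Mmp1b, Mmp1a, Mmp3, Mmp10, Mmp8, Mmp27, Mmp20 and Mmp7). The windows of 8 of these 10 genes hold AP-1 letters, whereas 0 of the 8 other Mmp genes with a window do, and 6.75% of all windows do. The same cluster was almost silent here: its genes had 7 counts in control and 25 in Mfp2-/- libraries in all, and 0 of the 10 could be tested. The 7 Mmp genes that were tested, Mmp2, Mmp9, Mmp14, Mmp15, Mmp16, Mmp17 and Mmp24, lie outside it. Of the 12 upregulated genes of all families that have a window, 0 hold AP-1 letters there. The absence of a match says only that these letters are not in this window.

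Of the cluster, Mmp12, an elastase of macrophages, accounted for much of the difference, with 0 counts in each control library and 4, 2, 4 and 2 counts in Mfp2-/- replicates 1 to 4. Set against a floor of 3 counts over the control group, its 12 counts in Mfp2-/- libraries gave a ratio of 4.17. This ratio leaves out the counting error of the 12 counts and the spread between mice. It failed the filter on low counts and passed edgeR's test when no filter was used (adjusted p = 0.0203), where 15.8% of all genes were called. Mmp12 shares 157 exon bases with Mmp1b on the other strand, which had 0 counts.

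The secreted ADAMTS proteases gave 4 upregulated genes and 1 downregulated gene among 6 tested. Adamts1, which cuts versican and other proteoglycans and blocks vessel growth, lay at 27.3, 30.8, 30.6 and 28.2 CPM in controls and at 69.4, 50.3, 67.2 and 85.7 CPM in Mfp2-/- replicates 1 to 4. The control libraries were close together and below all Mfp2-/- libraries (log2 fold change 1.22, 0.17, adjusted p = 3.94e-04). Its neighbour on chromosome 16, Adamts5, the main aggrecan-cutting enzyme of mouse cartilage, lay at 36.0, 42.1, 30.3 and 32.4 CPM in controls and at 101.2, 38.6, 65.9 and 71.3 CPM in Mfp2-/- libraries. It was called (log2 fold change 0.99, 0.25, adjusted p = 0.0148) although Mfp2-/- replicate 2 lay within the control range. Adamts1 spans 85793827 to 85803113 and Adamts5 85856173 to 85901828, both on the minus strand of GRCm38, and Mfp2-/- replicate 2 was the lowest Mfp2-/- library for each.

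Adamts4, a further aggrecan-cutting enzyme, was low, at 4.37, 2.26, 1.29 and 2.79 CPM in control and 4.60, 8.64, 6.72 and 4.78 CPM in Mfp2-/- replicates 1 to 4. The groups were barely separate and the log2 fold change of 1.18 (0.39) had an adjusted p of 0.0473. Adamts18, a protease whose human gene is linked to inherited eye disease, lay at 6.19, 6.79, 5.81 and 9.41 CPM in controls and at 18.8, 10.2, 18.5 and 9.56 CPM in Mfp2-/- libraries. Mfp2-/- replicates 1 and 3 were well above control, replicates 2 and 4 only just (log2 fold change 1.02, 0.30, adjusted p = 0.028). Adamts4 failed the test when control replicate 2, 3 or 4, or Mfp2-/- replicate 2 or 3, was left out (log2 fold changes 0.94 to 1.21, adjusted p 0.0962 to 0.122). It also failed with no filter (adjusted p = 0.0729) and without Mfp2-/- replicates 2 and 3 together (0.26). Adamts18 failed the test when control replicate 1, 2 or 3, or Mfp2-/- replicate 1 or 3, was left out (0.87 to 1.00, adjusted p 0.065 to 0.0899).

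Adamts3, which removes the amino-terminal propeptide of fibrillar collagens and activates VEGF-C, went the other way. It lay at 28.8, 26.2, 22.6 and 27.2 CPM in controls and at 8.85, 5.59, 3.70 and 10.7 CPM in Mfp2-/- replicates 1 to 4. All Mfp2-/- libraries were below all control libraries and the log2 fold change was -1.85 (0.28, adjusted p = 7.71e-04). Adamts10, a partner of fibrillin fibres, had a log2 fold change of 0.73 (0.25) and just missed the threshold (adjusted p = 0.0546). It passed in 10 of 19 alternatives, among them RLE factors, DESeq2 and limma-voom (adjusted p = 0.0484, 0.0425 and 0.0499). The summed level of the 19 Adamts genes was 128 ± 10.4 CPM in control and 206 ± 46.0 CPM in Mfp2-/- libraries (SD, n = 4).

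**Figure D3:**
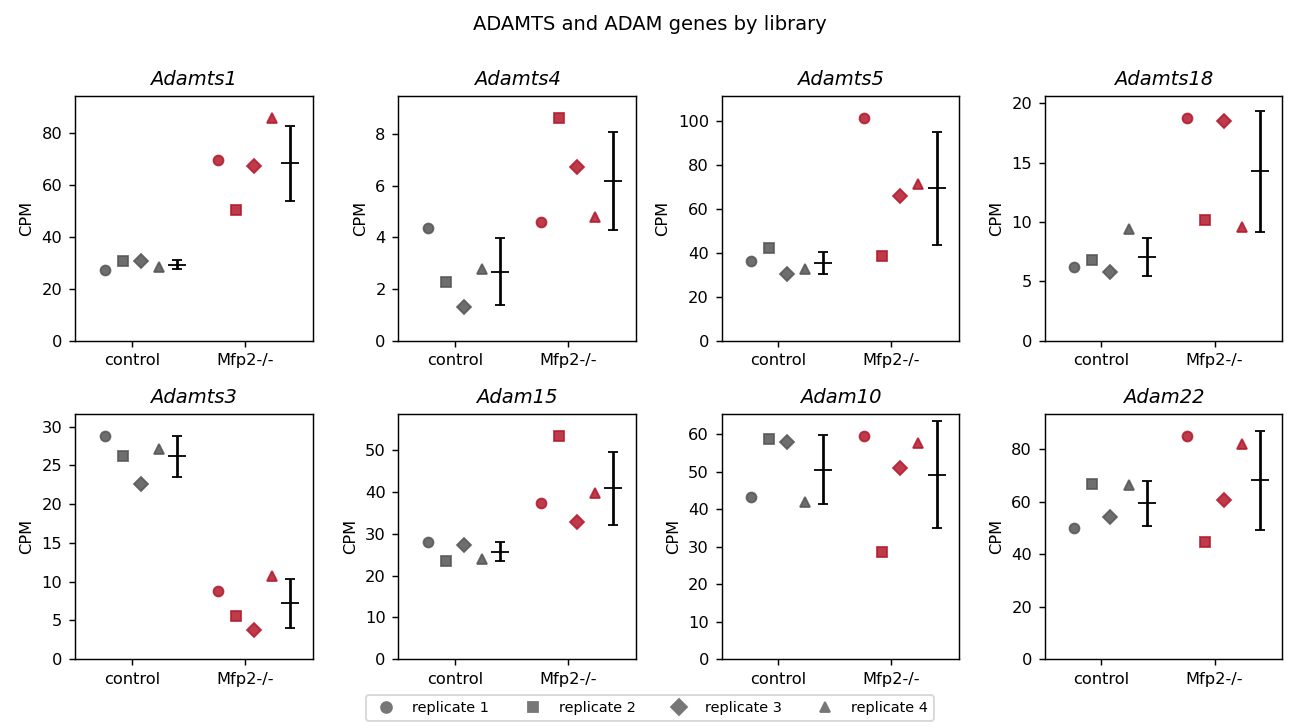
CPM (vertical axes) of 5 Adamts and 3 Adam genes in each control and Mfp2-/- library, with 1 marker shape per replicate number and bars for mean ± SD (n = 4). Adamts1 rises and Adamts3 falls with no overlap of the groups, Adamts5 overlaps through Mfp2-/- replicate 2, and the groups of Adam10 and Adam22 lie across each other.

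The membrane-anchored ADAM genes gave 1 call among 8 tested genes, or 12.5%, against 27% of all genes. Adam15, a protease with an integrin-binding domain that is found in vessels, lay at 28.0, 23.5, 27.4 and 24.0 CPM in controls and at 37.5, 53.4, 32.9 and 39.7 CPM in Mfp2-/- replicates 1 to 4. The groups did not overlap and the log2 fold change was 0.66 (0.17, adjusted p = 0.0172). Without control replicate 2 or 4 it was 0.61 or 0.63 and no longer called (adjusted p = 0.0555 and 0.0504). Adam22, a receptor of LGI proteins at synapses without protease activity and the most abundant Adam gene, lay at 49.9, 67.0, 54.2 and 66.5 CPM in controls and at 84.9, 44.7, 60.8 and 82.0 CPM in Mfp2-/- libraries. In Mfp2-/- replicates 1 and 4 it was above and in replicate 2 below all controls, and the test was not passed (log2 fold change 0.20, 0.20, adjusted p = 0.483).

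The main sheddases did not pass either. Adam10, which cuts Notch and APP, had a mean of 50.5 ± 9.19 CPM in control and 49.2 ± 14.3 CPM in Mfp2-/- libraries, and Adam17, which releases TNF, had 30.4 ± 3.87 CPM and 26.9 ± 6.33 CPM (SD, n = 4). Their log2 fold changes were -0.03 (0.22) and -0.17 (0.19). The remaining tested genes were Adam9, Adam11, Adam19 and Adam23, with log2 fold changes from -0.14 to 0.49. Without Mfp2-/- replicates 2 and 3, the neuronal genes Adam11, Adam22 and Adam23 passed the test with log2 fold changes of 0.64, 0.49 and 0.80, so that with Adam15 4 Adam genes were called. That fit called 26% of all genes.

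Among the proteoglycans and their partners, Ncan and Tnc rose. Ncan encodes neurocan, a chondroitin sulphate proteoglycan of nerve tissue, and Tnc encodes tenascin-C, a large matrix glycoprotein of development and injury that binds neurocan. Ncan lay at 10.6, 8.14, 10.6 and 10.8 CPM in controls and at 24.4, 34.6, 23.2 and 25.0 CPM in Mfp2-/- replicates 1 to 4, with replicate 2 lowest in control and highest in Mfp2-/- (log2 fold change 1.40, 0.19, adjusted p = 4.65e-04). Tnc lay at 10.9, 5.88, 10.3 and 9.06 CPM in controls and at 19.8, 23.9, 21.9 and 21.0 CPM in Mfp2-/- libraries. Here too the groups did not overlap, and the log2 fold change was 1.24 (0.21, adjusted p = 0.00164). The other proteoglycans of this family, Bcan (brevican) and Vcan (versican), had log2 fold changes of 0.57 (0.29) and 1.05 (0.51) and did not pass (adjusted p = 0.164 and 0.149). Vcan varied widely within groups, from 2.90 to 10.5 CPM in control and 5.71 to 24.6 CPM in Mfp2-/- libraries. Leaving out 1 library moved its log2 fold change between 0.52 (without Mfp2-/- replicate 4) and 1.46 (without control replicate 4), and it passed without Mfp2-/- replicates 2 and 3 (1.61, adjusted p = 0.00877).

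Thrombospondin-1 and the CCN proteins Ctgf and Cyr61, secreted proteins that are typical targets of TGF-beta and YAP signalling, rose more. Thbs1, which activates latent TGF-beta and blocks vessel growth, lay at 0.728, 4.52, 3.87 and 2.79 CPM in controls and at 16.6, 19.8, 20.2 and 13.6 CPM in Mfp2-/- replicates 1 to 4. All Mfp2-/- libraries were well above control (log2 fold change 2.56, 0.37, adjusted p = 5.83e-04). The control values of Thbs1 rest on 32 counts in all, 2 of them in replicate 1, so the size of the change is uncertain. Cyr61 lay at 1.46, 1.81, 1.94 and 1.74 CPM in controls and at 6.37, 6.61, 5.04 and 5.15 CPM in Mfp2-/- libraries. The 8 libraries fell into separate groups of similar spread in relative terms, with a log2 fold change of 1.70 (0.30, adjusted p = 0.00204). For Cyr61 the controls held 19 counts in all, so the size of its change is uncertain too.

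Ctgf was more abundant and less even. It lay at 25.5, 37.1, 38.1 and 51.9 CPM in controls and at 130.6, 234, 154 and 45.2 CPM in Mfp2-/- replicates 1 to 4. Replicate 4 of the Mfp2-/- mice lay within the control range while the other 3 were above it, and the log2 fold change was 1.88 (0.41, adjusted p = 0.00687). As for Mmp14 and Mmp24, the order of the Mfp2-/- libraries was that of the lens markers and, reversed, of the share of reads outside genes. The part of either in the Ctgf result was not tested. Mfp2-/- replicates 2 and 3 had the highest lens markers. Without them the log2 fold change of Ctgf was 1.20 and still called (adjusted p = 0.0122). This fit keeps Mfp2-/- replicate 1, whose lens markers (110.4 CPM) lay above all controls (15.7 to 58.2 CPM). Its other Mfp2-/- library is replicate 4, within the control range for Ctgf, so the fit does not test the part of lens RNA. Ctgf shares 665 exon bases with Gm15270 on the other strand, which had 33 counts.

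Wisp1, the third CCN gene of the group (chromosome 15, 66891320 to 66923201 of GRCm38, plus strand), encodes a secreted protein induced by Wnt signalling. It moved in the opposite direction and had the largest change of all 34 tested genes. It lay at 94.3, 116, 143 and 117 CPM in controls and at 2.83, 3.05, 2.35 and 4.78 CPM in Mfp2-/- replicates 1 to 4. The lowest control library was thus far above the highest Mfp2-/- library, with a log2 fold change of -5.16 (0.23, adjusted p = 1.63e-07). In control retinas it was more abundant than Ctgf and Cyr61 in each library, and in Mfp2-/- retinas less abundant than both in each library. The 10 rod markers fell with a median log2 fold change of -4.61, of which the part in the Wisp1 result was not tested.

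Sparc and Sparcl1 (hevin), which are related matricellular glycoproteins of glia and vessels with opposite effects on synapse formation, had the highest levels of the group. Sparc lay at 760.3, 603, 769.9 and 723 CPM in controls and at 1194, 1948, 1501 and 1188 CPM in Mfp2-/- replicates 1 to 4. The groups did not overlap and Mfp2-/- replicates 2 and 3 were highest (log2 fold change 1.03, 0.18, adjusted p = 0.00186). As for Mmp14, Mmp24 and Ctgf, the Mfp2-/- libraries had the order of the lens markers, though replicates 1 and 4 were nearly equal. Reversed, this was again the order of the share of reads outside genes. The part of either in the Sparc result was not tested. Without Mfp2-/- replicates 2 and 3 the log2 fold change was 0.73 and still called (adjusted p = 9.95e-04). This fit, too, keeps Mfp2-/- replicate 1 with its raised lens markers. Sparcl1 lay at 531, 509.8, 522.5 and 437.5 CPM in controls and at 541, 664, 627 and 606 CPM in Mfp2-/- libraries. All its Mfp2-/- libraries were above all control libraries, but by little, and it did not pass (log2 fold change 0.28, 0.13, adjusted p = 0.116). The ratio of Sparc to Sparcl1 counts was 1.44 ± 0.194 in control and 2.37 ± 0.414 in Mfp2-/- libraries (SD, n = 4), with ranges of 1.18 to 1.65 and 1.96 to 2.94.

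**Figure D4:**
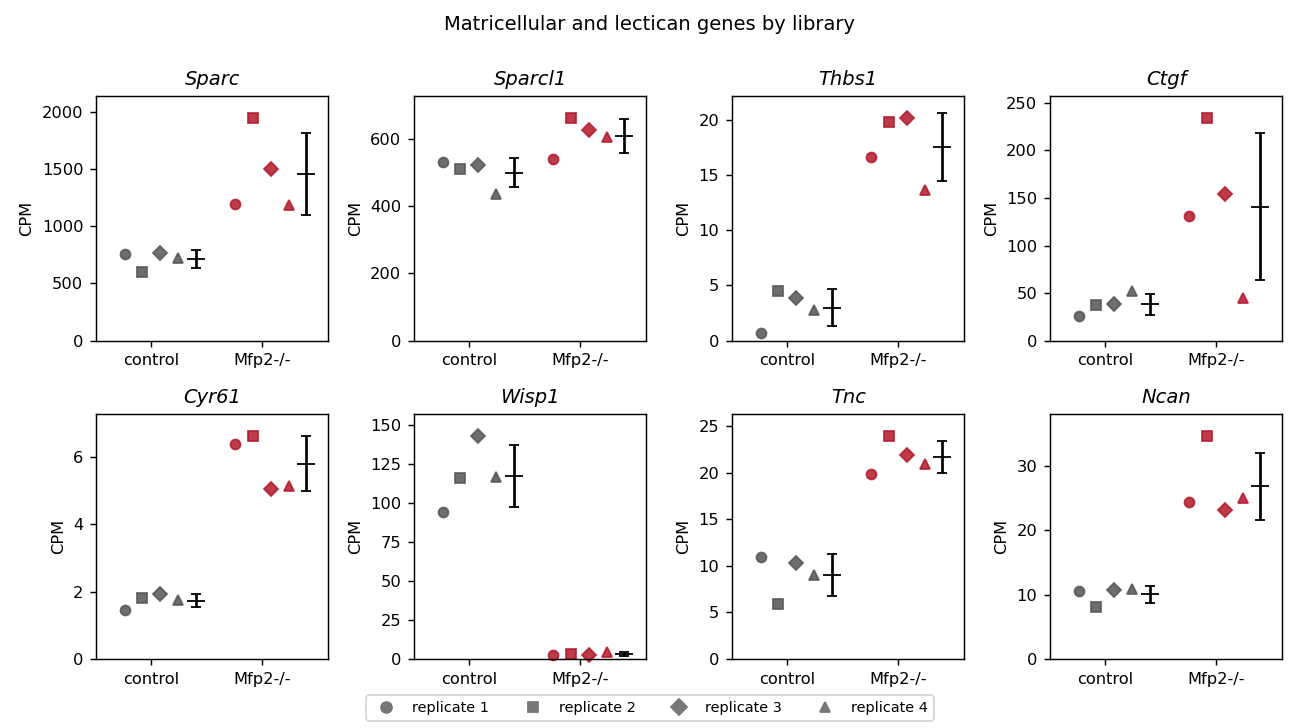
CPM (vertical axes) of 8 matricellular and proteoglycan genes in each control and Mfp2-/- library, with 1 marker shape per replicate number and bars for mean ± SD (n = 4). Wisp1 falls from 94.3 to 143 CPM in control to 2.35 to 4.78 CPM, Ctgf overlaps through Mfp2-/- replicate 4, and Thbs1, Cyr61, Tnc, Ncan and Sparc rise without overlap.

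Summed over families, inhibitors and metalloproteinases both increased. The 4 Timp genes came to 357 ± 35.2 CPM in the controls and 887 ± 104 CPM in the Mfp2-/- libraries, and the 23 Mmp genes to 101.9 ± 4.70 CPM and 204.5 ± 33.5 CPM (SD, n = 4). The ratio of Timp to Mmp counts was 3.52 ± 0.479 in control and 4.37 ± 0.468 in Mfp2-/- libraries, and the ranges of 3.01 to 4.09 and 3.96 to 4.85 overlapped. The ratio of Timp2 to Mmp14 counts, the pair that acts on MMP2, went the other way, from 13.5 ± 3.73 to 8.60 ± 1.79, also with overlapping ranges of 10.7 to 18.6 and 7.20 to 11.2. The 27 Adam genes summed to 248 ± 27.1 and 292 ± 57.8 CPM. Together the 84 genes took 0.202% to 0.228% of gene counts in control and 0.352% to 0.474% in Mfp2-/- libraries.

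**Figure D5:**
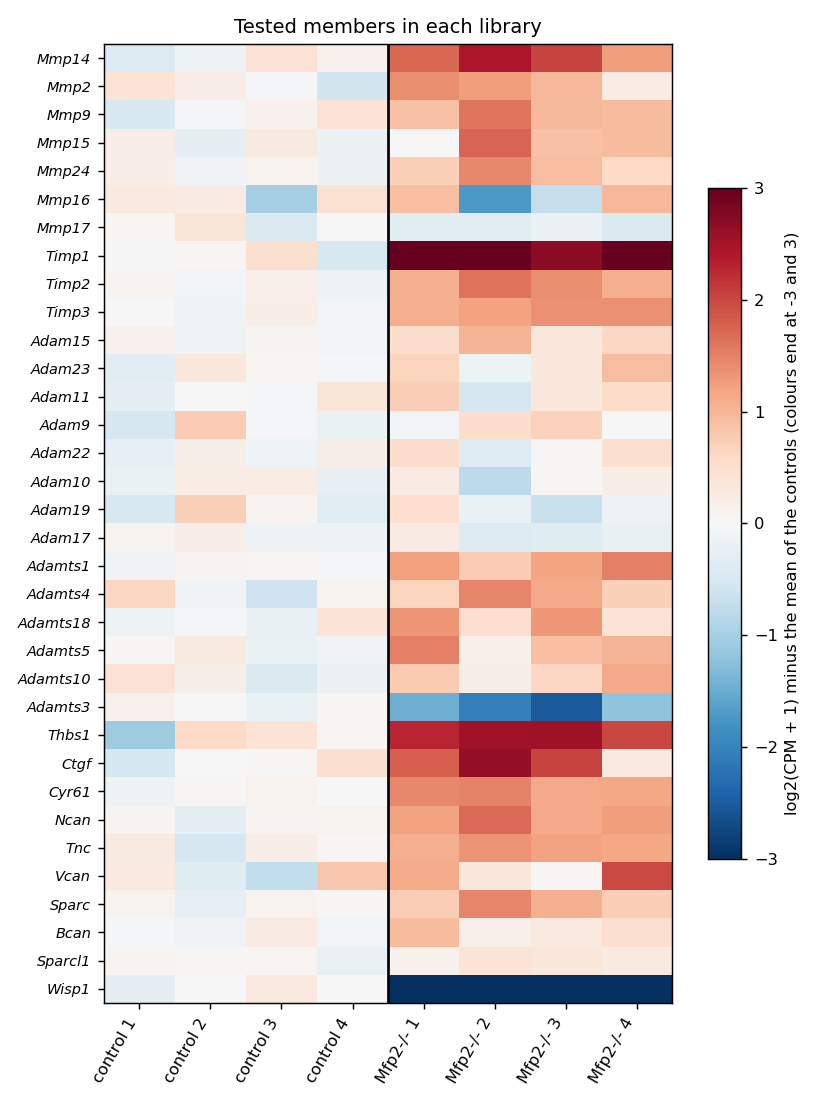
Difference of log2(CPM + 1) from the control mean (colour, limited at -3 and 3) for the 34 tested genes (rows) in the 8 libraries (columns, controls left of the line). Most Timp, Mmp, Adamts and matricellular rows are red in all 4 Mfp2-/- columns, Wisp1 and Adamts3 are blue, and several Adam rows and Mmp16 are pale or blue in Mfp2-/- replicate 2 alone or with replicate 3.

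The 50 genes that failed the filter include most of the ADAM and collagenase genes. No count in any library was found for 16 of them: Adam2, Adam3, Adam18, Adam20, Adam24, Adam25, Adam29, Adam30, Adam34, Adam39, Mmp1a, Mmp1b, Mmp7, Mmp10, Mmp21 and Mmp27. A count of 0 allows a level of up to 0.968 to 1.52 CPM in a library (3 counts). A further 8 had 1 to 3 counts over all libraries (Adam5, Adam28, Adamts13, Adamts14, Mmp3, Mmp20, Mmp25 and Mmp28). The other 26 had more: Adam4, Adam7, Adam8, Adam12, Adam21, Adam32, Adam33, Adamts2, Adamts6, Adamts7, Adamts8, Adamts9, Adamts12, Adamts15, Adamts16, Adamts17, Adamts19, Adamts20, Mmp8, Mmp11, Mmp12, Mmp13, Mmp19, Mmp23, Thbs2 and Timp4. Adam7, a gene known from the epididymis, had 2, 0, 1 and 0 counts in control and 13, 5, 8 and 11 counts in Mfp2-/- replicates 1 to 4. Each Mfp2-/- library exceeded each control library, the ratio of summed counts was 12.9 (exact 95% interval 4.07 to 65.2), and without the filter edgeR called it with an adjusted p of 0.00299. Adam12, a sheddase of muscle and mesenchyme, had 14 and 29 counts in all (ratio 2.16, interval 1.11 to 4.42), and Adamts9, a versican-cutting enzyme, 17 and 32 (1.96, 1.06 to 3.77). Neither was called without the filter (adjusted p = 0.253 and 0.448), and the intervals leave out the spread between mice.

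The partners of these proteins were read from the same fit, in which 13.8% of all tested genes were called upward and 13.2% downward. Among regulators of proteases, 7 of 15 tested genes rose and 1 fell, with a median log2 fold change of 0.61. The protease trap A2m went from 6.00 ± 1.26 to 114.5 ± 21.8 CPM (log2 fold change 4.24), the C1 inhibitor Serping1 from 8.23 ± 2.69 to 116 ± 18.9 CPM (3.79), and the enhancer of collagen propeptide cleavage Pcolce from 8.40 ± 3.39 to 29.5 ± 7.52 CPM (1.79). The related Pcolce2 fell by 0.69 on the log2 scale (adjusted p = 0.0397), but no gene of this list was called downward in 10 of 19 alternatives. Among lectican partners, hyaluronan and ADAMTS-like genes, 4 of 9 rose and 0 fell (median 0.82), led by the hyaluronan receptor Cd44 (log2 fold change 3.04), followed by the proteoglycan Cspg5 (0.92) and Adamtsl1 (0.83). Of 9 other matricellular genes, 8 rose and 0 fell (median 0.98), among them Spock1, Fstl1 and Efemp1 with log2 fold changes of 0.98, 1.27 and 1.01. Without control replicate 1, control replicate 3 or Mfp2-/- replicate 3 the count was 5.

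Of the genes that work with ADAM proteases, 10 of 18 tested substrates, ligands and maturation partners rose and 0 fell (median 0.66). The TNF receptor Tnfrsf1a, a substrate of ADAM17, rose by 2.18 on the log2 scale, the amyloid precursor App by 1.02 and N-cadherin (Cdh2), a substrate of ADAM10, by 0.85. Of 17 genes of TGF-beta and YAP signalling, 5 rose and 1 fell (median 0.51). Tgfb2 went from 204 ± 8.69 to 422 ± 27.9 CPM (log2 fold change 1.05), Tead2 and the receptor Axl had log2 fold changes of 1.79 and 1.46, and Tead3 fell by 1.13 (adjusted p = 0.0397). The other 11 were not called, with log2 fold changes from -0.10 (Ltbp4) to 0.97 (Tgfbr2). Among them were Amotl2 (0.37), Smad7 (0.36) and Lats2 (-0.02). In 13 of 19 alternatives no gene of this list was called downward, and 8 were called upward with upper-quartile factors or total counts alone. These lists were compared with all genes only by their counts and medians.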

How the data were processed

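RNA of both neural retinas of each mouse was sequenced by the study with the QuantSeq 3′ mRNA kit. The authors deposited raw counts per gene symbol for each library, and their processing notes list FastQC 0.11.7, HISAT2, SAMtools 1.5, HTSeq 2.7.14 and the mouse genome mm10. Not given in the sources used here are the annotation, the HISAT2 version and whether counting used strand. Rows that name no gene (59.2% to 66.9% of reads) were left out of library sizes and tests. A table of the whole series was not used here.

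In R 4.3.3 with edgeR 4.0.16, genes were kept by filterByExpr and scaled with TMM factors. The 4 Mfp2-/- libraries were compared with the 4 control libraries by the quasi-likelihood test of edgeR, and p-values were adjusted by Benjamini-Hochberg over 12516 genes. As in the study, which used limma, the controls include the Mfp2+/- mouse. Standard errors were taken as the log2 fold change divided by the square root of the F value. Every called gene, the 4 Timp genes and the tested gene with the highest mean CPM in each family are given in every library, other tested genes by range and count, and up to 3 called genes with the smallest adjusted p of each other list. For genes with few counts, ratios of summed counts scaled to library size were given with 95% exact binomial intervals. Molecules were not told apart by barcodes, so intervals and floors cover counting error only. The members and lists were chosen with earlier results of these data known.

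In counts simulated from these libraries over 12516 genes, recovery was 87.9% for 66 genes with a 4-fold change, 40.3% for 67 with 2-fold and 4.48% for 67 with 1.5-fold. Only these genes were changed in the simulation, whereas 3377 genes were called in the data. With so few changed genes the adjustment of p is stricter, so these shares are not the recovery in the data. No libraries were duplicates of each other, as replicate pairs differed with a chi-square per degree of freedom of 2.76 to 27.9. Positions and exon overlaps were taken from GENCODE on GRCm38 and promoter windows from RefSeq, in which Cyr61 is named Ccn1 and 51 of 84 genes had a window, 57 windows in all. Windows were searched on both strands for AP-1 (TGANTCA), TEAD (GGAATG), STAT (TTCCNGGAA) and CRX/OTX (TAATCC). The last 2 were found in 1 gene (Mmp23) and 2 genes (Mmp10 and Mmp1b) and in 0.913% and 6.25% of all windows. Protein sequences were not analysed here. Alternatives were DESeq2 1.42.0, voom of limma 3.58.1, other scalings and filters, edgeR's robust option, a block for replicate number, and leaving out libraries. Figures were drawn with matplotlib 3.10.9.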

Additional observations from a re-analysis of the deposited data

Results flagged for a closer look

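In 3 of the 44 groups of 4 libraries examined, 1 library lay far from the other 3 relative to the range of its group, which chance gives in about 1 in 20 groups. Ncan was at 8.14 CPM in control replicate 2, the Mfp2+/- mouse, with 10.6 to 10.8 CPM in the other controls. It was at 34.6 CPM in Mfp2-/- replicate 2, with 23.2 to 25.0 CPM in the other Mfp2-/- libraries. Mmp9 was at 56.4 CPM in Mfp2-/- replicate 2, with 34.0 to 36.3 CPM in the others. Mfp2-/- replicate 2 had the fewest counts in genes (1895485), the lowest share of reads outside genes (10.8%) and the highest summed level of lens markers (469 CPM). The part of these in the values was not tested.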

How the results depend on the processing

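Of the 84 genes, 20 were called among 34 tested. Under the other scalings, tests and models, 19 to 23 were called, where 22.7% to 29.7% of all tested genes were called. When each library was left out in turn 16 to 20 were called (14 to 18 upward and 2 to 2 downward), while all tested genes gave 2474 to 3524 calls (1201 to 1766 upward and 1244 to 1778 downward). With at least 10 counts asked of every library, 24 genes were tested and 1 was called downward, since Wisp1 was no longer tested. Upper-quartile factors or total counts alone gave all tested genes a median log2 fold change of 0.12 and moved the upward share of all calls from 51.2% to 64.2% and 65.2%. The replicate numbers did not pair the libraries (correlations of same-numbered deviations 0.0798, -0.161, 0.251 and 0.211, and 2 libraries best matched to their own number). With the replicate block 19 genes were called, 17 upward and 2 downward, of 2845 calls in all (1355 upward and 1490 downward), where the calls of Adamts4 and Adamts18 were lost and Vcan was newly called (log2 fold change 1.01, adjusted p = 0.0269). Without Mfp2-/- replicates 2 and 3 together 25 of 36 genes were called, 23 upward and 2 downward, where 26% of all 13044 tested genes were called. The 20 called genes kept their direction in 374 of 374 values and their call in 349, and 16 of them kept it in each alternative that tested them; the others were Adam15, Adamts4, Adamts18 and Mmp2. Of the 14 tested genes that were not called, 23 of 262 values passed the threshold, 10 of them of Adamts10 and 4 of Mmp15. Direction changed for 5 genes that were not called, and the cause was not tested. Without Mfp2-/- replicates 2 and 3, log2 fold changes were -0.10 for Adam9, 0.21 for Adam10, 0.19 for Adam19 and 0.029 for Adam17. Adam10 was at 0.087 under upper-quartile scaling and at 0.095 when scaled by total counts, and Mmp16 was at -0.026 with limma-voom. Leaving out 1 library gave -0.11 to 0.15 for Adam10, -0.45 to 0.16 for Adam19 and -0.15 to 0.50 for Mmp16. At this depth genes with small changes or few counts can be missed. The share missed in the data is not known, as the simulation changed far fewer genes than were called here.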
